A study of Mus musculus with 4 samples.

Results

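*Pou3f1*, *Fgf5*, *Otx2*, *Pim2*, *Utf1* and *Nkx1-2* were followed as 6 genes of the formative and primed epiblast. They were taken by name, with earlier results of these data known, and all 6 are among the 1577 genes of the authors' deposited RNA-sequencing table. Total RNA came from 46C mESCs, a mouse ESC line that carries a green fluorescent reporter at *Sox1*, kept for 24 h in serum-containing medium. NT cells (2 samples) had control medium, and Go6983-treated cells (2 samples) had 5 μM Go6983, a selective inhibitor of pan-PKC. Both groups are of this 1 line, and whether LIF was in the medium of these samples, or whether samples of a group were separate cultures, is not given in the sources used here, so p-values measure only the spread between these samples.

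Naive pluripotent cells stand for the epiblast before implantation, and primed cells for the epiblast after it. The formative state lies between them and is when cells become able to answer signals for the germ layers. FGF signaling through ERK drives cells out of the naive state, and the known course of this exit has *Otx2*, *Pou3f1* and *Fgf5* switched on while naive factors are lost. *Pou3f1* encodes the POU factor Oct6, *Otx2* a paired-type homeobox factor that helps to direct Oct4 to new enhancers, and *Utf1* a chromatin-bound protein of undifferentiated cells. *Fgf5* encodes a secreted FGF used as the classical marker of the egg-cylinder epiblast, and *Pim2* a serine/threonine kinase that promotes growth and survival. *Nkx1-2* encodes an NK-type homeobox factor found in the posterior epiblast, where neural and mesodermal progenitors of the trunk arise.

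Of these 6 genes, 5 were lower and 1, *Nkx1-2*, was higher in Go6983-treated mESCs. The falls ranged from 14.4-fold for *Pou3f1* to 2.21-fold for *Utf1*, and the rise of *Nkx1-2* was 3.05-fold. Fold changes were fitted with limma on log2(normalized count + 1) and called at a Benjamini-Hochberg adjusted p below 0.05 over all 1577 genes. The authors deposited a list already selected for changes of at least 2-fold, so 98.5% of its genes were called, 29.7% lower and 68.8% higher. Passing the test therefore says nothing particular about the 6 genes. The groups did not overlap for any of them, but nor did they for 99.7% of the listed genes. Counting only falls, 30.1% of the listed genes were lower without overlap, and 5 of the 6 genes were. The median log2 fold change was -1.72 over the 6 genes and 1.21 over all listed genes. Because the 6 were chosen with earlier results of these data known, this count and this median give no independent evidence of a direction. Together the 6 genes held 5.14% and 5.12% of the reads of the listed genes in the NT samples, against 1.76% and 1.52% in the Go6983 samples. In NT replicate 1, *Utf1*, *Otx2* and *Pim2* had 22588, 9346 and 8429 of these reads and *Nkx1-2* 29. The share therefore hardly reflects *Nkx1-2*.

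**Figure D1:**
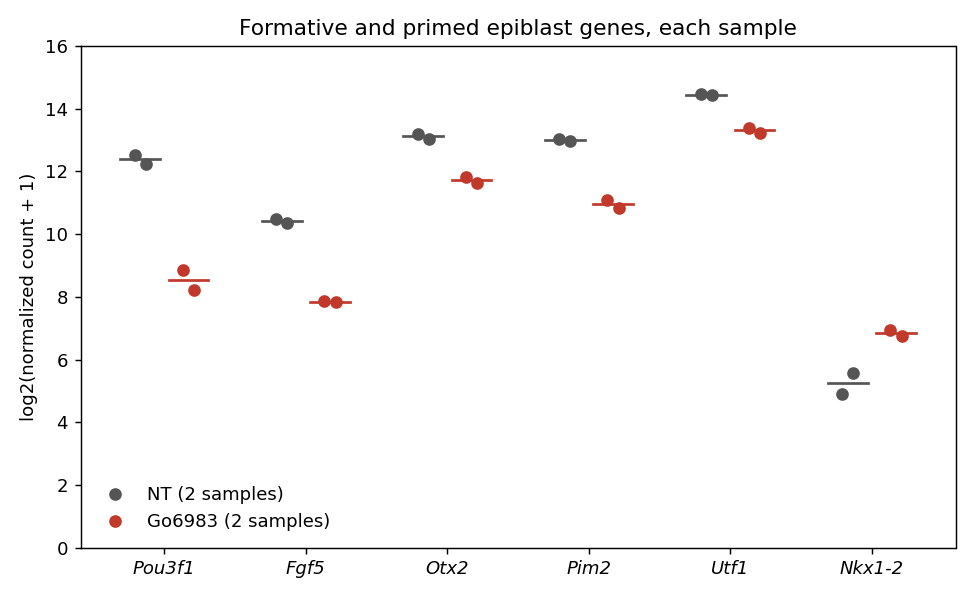
Expression of the 6 genes as log2(normalized count + 1) on the y axis, with each point a sample, grey for the 2 NT and red for the 2 Go6983 samples, and each line the group mean. Both Go6983 samples lie below both NT samples for the first 5 genes and above them for *Nkx1-2*.

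The promoter sequences of 4 genes are given to show what lies upstream of genes that changed together and of the 1 that went the other way. They are RefSeq sequences of GRCm38.p6, covering 250 bases before to 50 after the start site, written 5′ to 3′ on the strand of the gene. The table of promoters held 5 of the 6 genes, and *Pou3f1* had no entry. The windows are chrX:7878056-7878355 for *Pim2* (plus strand), chr7:139943606-139943905 for *Utf1* (plus strand), chr5:98253934-98254233 for *Fgf5* (plus strand) and chr7:132599588-132599887 for *Nkx1-2* (minus strand). Capitals mark matches, on either strand, to the octamer ATGCAAAT that POU factors bind, to GGGCGG, the core of the GC box, to TATAAA, the TATA box, and to TAATCC, a core site of Otx-type homeodomains.
Pim2: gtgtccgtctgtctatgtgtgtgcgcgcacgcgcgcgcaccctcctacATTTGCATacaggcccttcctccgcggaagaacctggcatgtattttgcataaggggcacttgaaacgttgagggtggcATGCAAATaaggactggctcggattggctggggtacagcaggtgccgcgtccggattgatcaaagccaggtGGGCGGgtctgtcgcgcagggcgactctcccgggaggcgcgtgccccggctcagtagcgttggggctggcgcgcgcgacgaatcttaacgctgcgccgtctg
Utf1: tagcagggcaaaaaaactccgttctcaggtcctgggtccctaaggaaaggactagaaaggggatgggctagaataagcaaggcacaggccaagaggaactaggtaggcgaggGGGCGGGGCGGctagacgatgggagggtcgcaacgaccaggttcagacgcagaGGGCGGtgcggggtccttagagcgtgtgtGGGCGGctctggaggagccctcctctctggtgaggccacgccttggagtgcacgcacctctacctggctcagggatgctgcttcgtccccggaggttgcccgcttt
Fgf5: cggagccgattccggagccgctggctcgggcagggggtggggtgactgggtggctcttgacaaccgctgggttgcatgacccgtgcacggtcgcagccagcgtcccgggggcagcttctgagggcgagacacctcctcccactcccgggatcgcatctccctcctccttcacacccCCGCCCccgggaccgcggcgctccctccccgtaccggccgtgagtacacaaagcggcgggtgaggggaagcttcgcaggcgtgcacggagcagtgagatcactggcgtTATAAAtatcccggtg
Nkx1-2: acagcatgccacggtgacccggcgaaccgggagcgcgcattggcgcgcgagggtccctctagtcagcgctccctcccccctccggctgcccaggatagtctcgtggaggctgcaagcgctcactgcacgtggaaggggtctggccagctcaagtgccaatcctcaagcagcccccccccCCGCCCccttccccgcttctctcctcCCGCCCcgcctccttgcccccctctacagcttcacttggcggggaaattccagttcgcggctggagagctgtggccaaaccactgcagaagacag

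The *Pim2* window held 2 octamers on opposite strands, their first bases at -202 and -123 from the start site. An octamer on either strand stood in 1.74% of the 32851 promoter windows of this length. *Utf1* held 4 GC box cores, of which the first 2 overlap in the run from -138, *Nkx1-2* held 2 and *Fgf5* and *Pim2* 1 each. This motif stood in 35.7% of all windows. The TATAAA of *Fgf5* lies at 35 after its start site, not upstream of it, and 13.6% of windows held this motif. *Otx2* has 4 RefSeq start sites, and among its 4 windows 1 held TAATCC, a motif found in 7.06% of all single windows, and another held TATAAA at -192. The windows of *Fgf5*, *Nkx1-2*, *Pim2* and *Utf1* were rich in GC, at 68.3%, 67.3%, 62.7% and 62.0%, against a median of 52.7% over all windows. Those of *Otx2* ran from 41.7% to 53.7%. A match to these letters was not tested as a binding site.

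*Pou3f1* (ENSMUSG00000090125), a gene of 1 exon at 124656807 to 124660655 on chromosome 4 of GRCm38, had 5877 and 4849 normalized counts without the inhibitor and 457 and 299.7 with it. Both treated samples were far below both NT samples, while the treated pair itself spread by 0.61 on the log2 scale, the widest gap between Go6983 replicates among the 6 genes. The log2 fold change was -3.85 (standard error 0.22, 95% interval -4.39 to -3.30, limma adjusted p = 0.000375). The mean normalized count dropped from 5363 ± 727 (SD, n = 2) in NT cells to 379 ± 112 (SD, n = 2), which left 7.06% of the NT level. Among the 41 listed genes with at least as many normalized counts in NT cells, no log2 fold change was lower than that of *Pou3f1*, and over all 1577 genes it ranked 18 from the lowest. *Pou3f1* is also 1 of the pluripotency genes that the study picked from these same samples. The paper then checked those genes by qRT-PCR, and it lists the Pou3f1 protein as lower by mass spectrometry.

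*Otx2* (ENSMUSG00000021848), on chromosome 14 from 48657677 to 48673819, had 9295 and 8467 normalized counts in the NT samples against 3632 and 3150.1 with Go6983. All 4 values were high in reads, and the groups were well apart. The log2 fold change was -1.39 (standard error 0.11, 95% interval -1.67 to -1.11, limma adjusted p = 0.000428), so that 38.2% of the NT level remained. It ranked 5 from the lowest among the 23 listed genes with at least as many normalized counts in NT cells.

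*Utf1* (ENSMUSG00000047751) is a short gene on chromosome 7, from 139943789 to 139945112, with 1227 bases of exon. NT samples had 22464 and 22283 normalized counts, and Go6983 samples 10757 and 9512. The NT samples differed by 0.012 on the log2 scale, the smallest replicate gap of the 6 genes, and both treated samples were well below them. With a log2 fold change of -1.15 (standard error 0.10, 95% interval -1.40 to -0.89, limma adjusted p = 0.000428), *Utf1* had the smallest fall of the 5 and kept 45.3% of its NT level. It remained the most abundant of the 6 genes per exon length in both groups. Of the 6 listed genes with at least as many normalized counts in NT cells, 5 were lower, and *Utf1* fell least of these.

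*Fgf5* (ENSMUSG00000029337), on chromosome 5 from 98254184 to 98277030, had 1438 and 1298 normalized counts in NT cells and 233 and 225 in Go6983-treated cells. The replicates lay close together in both groups, and the treated samples were at 16.7% of the NT level. The log2 fold change was -2.57 (standard error 0.12, 95% interval -2.86 to -2.28, limma adjusted p = 0.000375). It ranked 6 from the lowest among the 116 listed genes with at least as many normalized counts in NT cells.

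*Pim2* (ENSMUSG00000031155), on chromosome X from 7878262 to 7883432, had 8383 and 8063 normalized counts in the NT samples against 2164 and 1829 with Go6983. The fall left 24.3% of the NT level. Its log2 fold change of -2.05 (standard error 0.11, 95% interval -2.33 to -1.77, limma adjusted p = 0.000375) was the lowest among the 26 listed genes with at least as many normalized counts in NT cells. Its neighbours *Otud5*, 1635 bases before it, and *Slc35a2*, 595 bases after it, were not analysed here.

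*Nkx1-2* (ENSMUSG00000048528), on chromosome 7 from 132594878 to 132599637, was the 1 gene that rose. It had 28.8 and 47.0 normalized counts in the NT samples and 123 and 106 with Go6983. These came from 29, 46, 132 and 99 reads, so *Nkx1-2* was by far the least expressed of the 6 genes, and its NT samples were 0.69 apart on the log2 scale. The log2 fold change was 1.61 (standard error 0.32, 95% interval 0.82 to 2.39, limma adjusted p = 0.00524). The call was lost without Go6983 replicate 1 (log2 fold change 1.5, limma adjusted p = 0.105) and without Go6983 replicate 2 (log2 fold change 1.71, limma adjusted p = 0.0910). With the libraries scaled to each other by their median ratio, which lowers the log2 fold changes by a median of 1.10 because the list holds more rises than falls, the log2 fold change of *Nkx1-2* was 0.50 (limma adjusted p = 0.299).

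**Figure D2:**
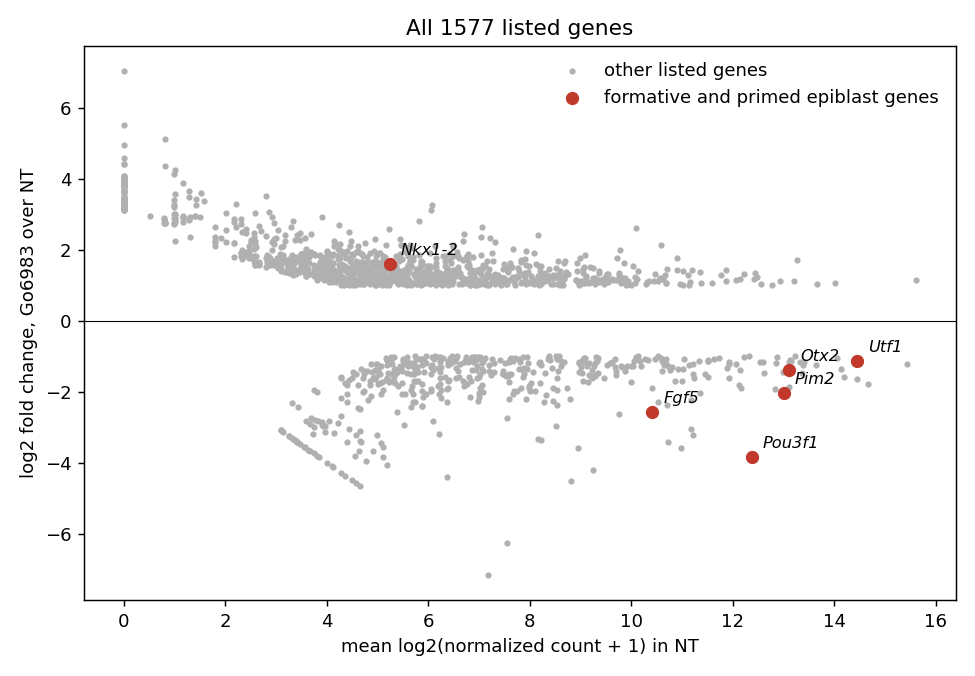
Mean log2(normalized count + 1) in NT cells on the x axis against the log2 fold change on the y axis for the 1577 listed genes (grey), with the 6 genes in red. The empty band around 0 is where unchanged genes would be, since the table holds selected genes only; *Pou3f1* lies lowest among genes of its NT level or above, and *Nkx1-2* lies among the higher genes of low level.

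The sizes of the falls were ordered as *Pou3f1*, *Fgf5*, *Pim2*, *Otx2* and *Utf1*. Taking each treated sample against each NT sample, 4 pairs in all, the log2 difference lay from -4.29 to -3.40 for *Pou3f1*, from -2.67 to -2.47 for *Fgf5*, from -2.20 to -1.90 for *Pim2*, from -1.56 to -1.22 for *Otx2* and from -1.24 to -1.05 for *Utf1*. Only the ranges of *Otx2* and *Utf1* touched, and those of the other 14 of the 15 pairs of genes, *Nkx1-2* included, were apart. These ranges share samples, and they are a description. The exact permutation test over samples (two-sided) of the log2 ratio of 2 genes gave p = 0.333 for each pair, adjusted p = 0.333 over the 15 pairs, which is the smallest p that 2 samples against 2 allow. The log2 ratio of *Pou3f1* to *Otx2* was -0.66 and -0.80 in NT cells and -2.99 and -3.39 with Go6983. *Otx2* and *Pim2* stood almost level in counts in NT cells, with log2 ratios of 0.15 and 0.07, and at 0.75 and 0.78 with Go6983.

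Levels were compared between genes as normalized counts per kb of annotated exon. In NT cells the order was *Utf1* (18234 ± 105 per kb), *Pim2* (2942 ± 80.9), *Otx2* (2104 ± 139), *Pou3f1* (1393 ± 189), *Fgf5* (547 ± 39.7) and *Nkx1-2* (11.6 ± 3.93; mean ± SD, n = 2). No neighbours in this order overlapped between their samples. With Go6983, *Utf1* was at 8259.7 ± 717 per kb, *Otx2* at 803 ± 80.8, *Pim2* at 714 ± 84.6, *Pou3f1* at 98.4 ± 29.0, *Fgf5* at 91.6 ± 2.43 and *Nkx1-2* at 35.1 ± 3.74. Here the samples of *Otx2* and *Pim2* overlapped, as did those of *Pou3f1* and *Fgf5*, so that neither pair can be ordered. *Pou3f1* and *Fgf5*, clearly apart in NT cells, thus came to the same range per kb. The exon lengths join all annotated isoforms, 11 of them for *Otx2* and 1 for *Pou3f1*, and a gene that uses few of its exons is understated.

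**Figure D3:**
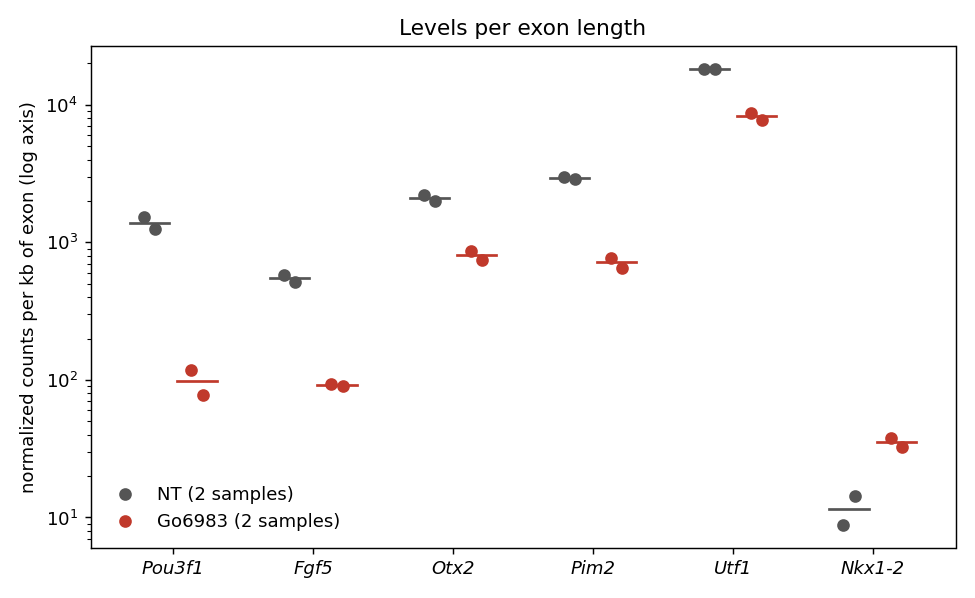
Normalized counts per kb of exon on a log y axis for the 6 genes, with each point a sample (grey NT, red Go6983) and each line a group mean. *Utf1* is highest in both groups, and with Go6983 the points of *Pou3f1* and *Fgf5* share 1 range, as do those of *Otx2* and *Pim2*.

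Some reads at these loci may belong to other transcripts. On GRCm38, *Gm2164* overlaps 330 exon bases of *Pou3f1* on the opposite strand, *Otx2os1* 154 exon bases of *Otx2* and *Gm16764* 541 exon bases of *Nkx1-2*. *Gm49154* shares 168 exon bases with *Otx2* on its own strand. Strand was not given in the sources used here, so reads of a gene and of its antisense partner cannot be told apart in those stretches, and these 4 transcripts were not analysed here. In this annotation *Nkx1-2* also lies inside a very long model of *Fgfr2*, from 130162451 to 133123350 on the same strand, with no exon base in common. *Fgfr2*, which encodes an FGF receptor, moved in the opposite direction, from 690.2 and 560.0 normalized counts in NT cells to 259.5 and 174 with Go6983.

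The other genes of the formative and primed epiblast that were in the table also fell. Of a list of 24, 8 were in the table and all 8 were lower, where 29.7% of all listed genes were. Their median log2 fold change was -1.72 against 1.21 over all listed genes. The other 16 were not analysed here, and the list was drawn up with earlier results of these data known. *Lef1*, a transcription factor of Wnt signaling, went from 2450 and 2199 normalized counts to 282 and 280.4, a log2 fold change of -3.04 (standard error 0.11). *Sall2* and *Grhl2*, which encode a spalt-like zinc finger factor and a grainyhead-like factor of epithelial enhancers, had log2 fold changes of -1.92 and -1.81 (standard errors 0.15 and 0.14). Those of the *de novo* methyltransferase genes *Dnmt3b* and *Dnmt3a* were -1.79 and -1.65 and that of their cofactor *Dnmt3l* was -1.22. *Etv4*, an ETS factor gene induced by FGF, had one of -1.39, and *Foxd3*, a forkhead factor gene, one of -1.23. *Etv4* is counted again among the FGF/ERK genes below. The limma adjusted p-values of these 8 genes lay between 0.000161 and 0.000428, and each of the 8 had both Go6983 samples below both NT samples. So did 30.1% of all listed genes, and 98.5% of all listed genes were called in either direction. Passing the test therefore says nothing particular about these 8. The 3 *Dnmt3* genes were chosen by the study on these samples and give no independent evidence of a direction.

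The FGF genes in the table were all lower. Of 27 ligand and receptor genes 4 were in the table, *Fgf5*, *Fgf15*, *Fgf14* and *Fgfr2*, with a median log2 fold change of -1.82. Over all listed genes 29.7% were lower, and the median was 1.21. This list too was drawn up with earlier results of these data known. *Fgf15*, which encodes a secreted FGF known as a hormone of bile acid control in the adult, had 2598 and 2627 normalized counts in NT cells and 724 and 556 with Go6983. Its log2 fold change was -2.04 (standard error 0.15, limma adjusted p = 0.000415). *Fgf14*, whose product stays inside the cell and binds sodium channels, had 30.8 and 40.9 against 10.3 and 11.8 normalized counts, and its call (limma adjusted p = 0.00866) was lost without Go6983 replicate 1 (0.0917) and without Go6983 replicate 2 (0.0800). *Fgfr2* changed by -1.54 on the log2 scale (standard error 0.23) at a limma adjusted p of 0.00177. Of 19 feedback and target genes of FGF/ERK signaling, 7 were in the table, of which 6 were lower and *Fos*, an immediate early gene, was higher, with a median of -1.13 on the log2 scale. *Myc*, 1 of the 6, was also picked by the study from these samples and then checked there by qRT-PCR. The lower genes with the smallest p were *Etv4*, *Dusp4*, *Etv1* and *Spry4*, with log2 fold changes of -1.39, -1.49, -1.10 and -1.20. The call of *Fos* (log2 fold change 1.00, limma adjusted p = 0.00310) was lost without Go6983 replicate 1 (0.0522) and without Go6983 replicate 2 (0.0680).

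**Figure D4:**
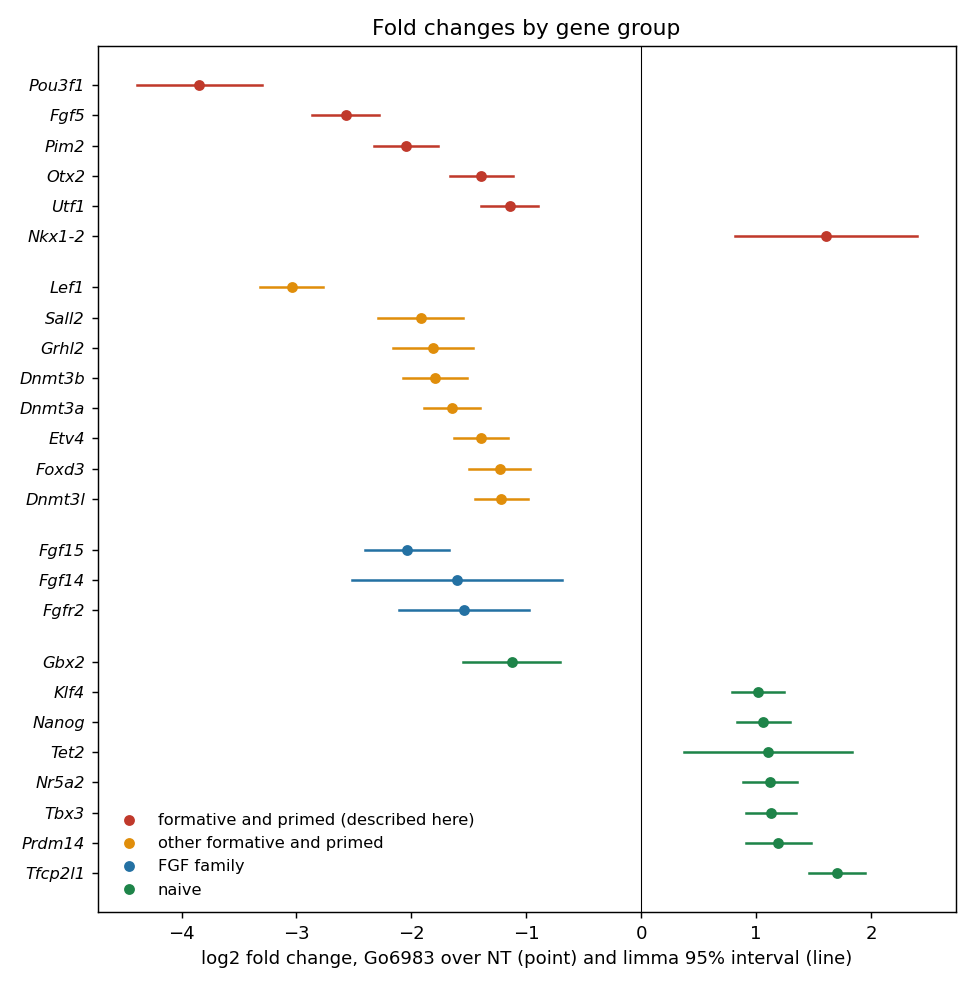
Log2 fold change of Go6983 over NT (x axis, point) with its limma 95% interval (line) for the 6 genes (red), the other formative and primed genes (orange), the other FGF genes (blue) and the naive genes (green) that the table lists. All intervals in orange and blue lie below 0, and 7 of the 8 in green lie above it.

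Relatives of the 6 genes within their own families did not share 1 direction. Over all listed genes 68.8% were higher and 29.7% lower, so this mix is no result about the families. In the POU family, 3 of 16 genes were in the table, and *Pou6f1* and *Pou2f3* were higher where *Pou3f1* was lower. *Pou6f1* had 252 and 224 normalized counts in NT cells and 592 and 621 with Go6983. *Pou2f3*, a factor of tuft cells, had 38.8 and 35.8 against 96.2 and 70.6 (limma adjusted p = 0.0117), a call that was lost when any 1 of the 4 samples was left out (0.0591 to 0.125). Of 17 OTX and NK homeobox genes 4 were in the table. *Otx2* and *Nkx2-9* were lower and *Nkx1-2* and *Nkx6-3* higher. *Nkx2-9* had 662 and 544 normalized counts in NT cells and 255 and 201 with Go6983, and *Nkx6-3* had 227 and 213 against 575 and 577. *Pim2* was the 1 gene of the 3 PIM kinases in the table. Under the median ratio scaling, *Pou6f1* and *Nkx6-3* had log2 fold changes of 0.23 and 0.27 and were no longer called (limma adjusted p = 0.239 and 0.154).

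Of 20 genes of the naive state, 8 were in the table, and 7 of these were higher and *Gbx2* lower. Over all listed genes 68.8% were higher, and the median log2 fold change was 1.11 for the naive genes against 1.21 for all, so the count is no result about naive genes. The calls of *Tet2* (limma adjusted p = 0.186 and 0.177) and of *Gbx2* (0.0536) were lost without a Go6983 replicate, either one for *Tet2* and replicate 1 for *Gbx2*. *Tfcp2l1*, a transcription factor gene downstream of LIF, had the smallest p and a log2 fold change of 1.70 (standard error 0.098), and *Tbx3*, *Nr5a2* and *Nanog* had 1.13, 1.12 and 1.06. With that same scaling, *Nanog* and *Nr5a2* had log2 fold changes of -0.063 and -0.0031, because it takes about 1.10 from each. Except for *Klf4*, these naive genes are among those that the study picked from these same samples, so their values here too give no independent evidence. The paper also checked the genes it picked by qRT-PCR. Of 10 core pluripotency genes *Utf1* was the 1 in the table, and *Pou5f1* and *Sox2*, the defining genes of the labelled cell type, were not analysed here. The primitive streak and posterior list, in which *Nkx1-2* stands, had 2 of 18 genes in the table. Both were higher, and *Cdx1*, a caudal-type homeobox gene, went from 51.7 and 83.8 to 536 and 769.6 normalized counts.

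Markers of other cell types moved in both directions, in a table with 68.8% of its genes higher and 29.7% lower. None of 10 primitive endoderm markers was in the table. The 3 of 10 trophoblast markers present, *Tead4*, *Tfap2c* and *Esx1*, were higher, with a summed level of 1859 to 1962 normalized counts in NT cells and 4766 to 5161 with Go6983. Of 10 neural markers *Neurod1* and *Pax6* were lower and *Lhx2* higher (sum 1365 to 1568 against 427 to 525), most of the sum from *Neurod1*. Of 10 mesoderm and endothelial markers *Tal1* and *Kdr* were lower and *Myl7* higher (245 to 249 against 189 to 228). *Fn1* and *Col1a2*, 2 of 10 fibroblast markers, were higher (47760 to 52273 against 109338 to 111903), nearly all of it from *Fn1*, which mESCs also express. Many of these calls did not hold in every fit. *Tfap2c*, *Esx1*, *Lhx2*, *Myl7*, *Fn1* and *Col1a2* were no longer called under the median ratio scaling, with log2 fold changes of 0.21 or less. *Lhx2*, *Myl7*, *Fn1* and *Col1a2* were also lost without either Go6983 replicate. *Pax6* was lost without NT replicate 1 or either Go6983 replicate, *Kdr* without either NT replicate or Go6983 replicate 2, and *Tal1* when any 1 sample was left out. The part of these markers in the changes of the 6 genes was not tested, and in bulk RNA fewer cells of a type and less RNA per cell cannot be told apart.

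For each of the 6 genes, the 3 listed genes with the most alike pattern were sought by the Euclidean distance between the 4 log2 values, each gene centred on its NT mean, among the 1044 genes whose higher group averaged 50 normalized counts or more. *Pou3f1* was closest to *Grm6*, a metabotropic glutamate receptor gene (distance 0.38), then to *Rnf26* and *Gadd45g* (0.68 and 0.75). The genes nearest to *Fgf5* were *Car4*, *Trim36* and *Chst1* (0.18, 0.28 and 0.43), and those nearest to *Otx2* were *Foxi3*, *Hist2h3c1* and *Ms4a14* (0.096, 0.10 and 0.11). *Hist2h3c1* is 1 of several near-identical histone genes, so its reads are uncertain. The FGF gene *Fgf15* was the closest to *Pim2* (0.11), before *Cphx1* and *Pax8* (0.17 and 0.20). *Utf1* had the nearest companions of all, *Pdzd4*, *Bckdha* and *Snrpn* (0.026, 0.051 and 0.054). *Nkx1-2* was most like *Gab2*, *Nmnat3* and *Calr4* (0.084, 0.18 and 0.20). Like *Nkx1-2*, these genes were no longer called under the median ratio scaling. Their log2 fold changes there were 0.48, 0.53 and 0.57 (limma adjusted p = 0.251, 0.376 and 0.187). Distances rest on 4 samples. Rank for rank they were smallest for *Utf1*, which had the smallest fall, and largest for *Pou3f1*, which had the largest fall. Whether the number of genes with a like change accounts for this was not tested.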

How the data were processed

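RNA-sequencing of 46C mESCs (2 NT and 2 Go6983 samples) was analysed from the authors' deposited table of 1577 genes. The deposited log2 values are log2(read count divided by a size factor + 1): with the log2 and the 1 undone, 100% of the values were whole multiples of the sample's smallest step, within 0.05 reads. Bowtie 0.12.2 and mm9 are named in the submitters' processing notes. Counter, annotation and strand are not stated there or in the paper. Columns of the authors' group means, log2 fold changes, p-values and adjusted p-values in the deposited table served only to see how genes had been selected. The highest unadjusted p in the table is 0.0494, so it holds selected genes only, and genes outside it were not analysed here. The reads recovered in listed genes were 859777 to 1054236 per sample, and the total depth is unknown.

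The model was limma's (version 3.58.1, under R 4.3.3; lmFit, eBayes with trend; 3.63 prior and 2 residual degrees of freedom), with no filter and no block, with Benjamini-Hochberg adjustment over all 1577 genes. Because these samples also served to select the genes, p-values are likely too low. The fit was first tested on simulated data. Exact permutation tests used scipy 1.17.1, and figures matplotlib 3.10.9. Symbols, coordinates and exons come from GENCODE M21 on GRCm38 by gene ID, which matched 1572 genes. Promoters come from RefSeq (GRCm38.p6). The 6 genes and the 14 other gene lists were chosen with earlier results of these data known. Named genes are the 6, all listed genes of the formative and primed, FGF, POU, OTX and NK and PIM lists, up to 4 genes of smallest p of the other lists, the 3 most alike genes per gene, and neighbouring genes. *Fos*, *Gbx2*, *Klf4*, *Myc* and *Tet2* were named after their values were seen. Replicates differed by more than counting error (chi-square per gene 9.75 in NT and 7.33 in Go6983), so none was a copy. Alternatives were other pseudocounts, filters, scalings, a 4-fold threshold, limma without trend, limma-voom on recovered reads, a replicate block and each sample left out.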

Additional observations from a re-analysis of the deposited data

How the results depend on the processing

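*Pou3f1*, *Fgf5*, *Otx2*, *Pim2* and *Utf1* were called lower under each of 13 alternatives, with limma adjusted p-values of 0.0279 or less. *Nkx1-2* kept its direction in all 13 but was called in 10: its log2 fold change was 0.50 with the median ratio scaling, and 1.26 to 1.95 with 1 sample left out, the call being lost without either Go6983 replicate. At 4-fold, 3 of the 6 genes (*Pou3f1*, *Fgf5* and *Pim2*) were lower and 0 higher, as 0 were higher under the median ratio scaling or without either Go6983 replicate. At 4-fold, 121 of all listed genes were lower and 219 higher, against 469 and 1085, and 1 other formative and primed gene, 2 FGF genes, 0 FGF/ERK targets and 0 naive genes were called in either direction. The median ratio scaling left 176 listed genes, 1 naive gene and 0 FGF/ERK targets higher. It also turned *Klf4* (-0.11), *Nanog* (-0.063), *Nr5a2* (-0.0031), *Tet2* (-0.018) and *Fos* (-0.12), since by its construction it lowers each log2 fold change by about 1.10. Genes of at least 50 normalized counts gave 714 higher. With 1 sample left out, 260 to 315 listed genes were lower and 431 to 858 higher, the naive genes lower (*Gbx2*) numbered 0 to 1 and the FGF/ERK targets higher (*Fos*) 0 to 1. In these fits the lone sample is assumed to vary like the other group.

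The replicate numbers share only a number: deviations of same-numbered samples correlated at 0.032. With the replicate block, the log2 fold change of *Nkx1-2* was 1.61 (limma adjusted p = 0.0123). None of the named genes that were fitted lost its call under the block, and the counts called in the gene lists stayed the same. Over all listed genes, slightly fewer were called lower, and slightly fewer higher, than without the block. Total depth is unknown, so genes outside the table cannot be called unchanged.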
